A study of Mus musculus with 16 samples.

Results

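AtT-20 cells that make Pax7 all the time were compared with control cells of the same line that make Neo. AtT-20 is a mouse pituitary corticotroph line, a tumour line that produces pro-opiomelanocortin (Pomc). The Pax7 cells express 3x flag-Pax7 and the Neo cells express 3x flag-Neo. Both were non treated, were at passages 10 to 20, and were grown in DMEM + 10% FBS to about 70% confluence in 3 days. The members of the comparison are the 2 Pax7 and 2 Neo libraries, 4 of the 16 libraries of the series, with all 24063 genes of their table. Total RNA was depleted of ribosomal RNA and sequenced as 50 bp paired ends. The other 12 libraries come from AtT-20 cells with 3x flag-ER-Pax7. These cells were non treated (0 h) or given 4-hydroxy-Tamoxifen for 12, 24 or 96 h, with 3 libraries at each time. All 12 libraries were fitted in 1 model, and its contrast of 96 h against 0 h is used here for 1 side-by-side description. Values are FPKM, reads scaled to gene length and library size, over whole gene bodies, introns included. Nothing in the labels states whether replicates 1 and 2 were grown separately, so the spread behind each p-value may be technical. With a single population of each kind, the effect of Pax7 and any other difference between the populations cannot be told apart.

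Pax7 is a paired-domain and homeodomain transcription factor that, in the pituitary, acts as a pioneer factor for the melanotrope, the cell of the intermediate lobe. Melanotropes and corticotropes both transcribe Pomc but cut its product differently. Corticotropes use the convertase Pcsk1 to release ACTH, and melanotropes add the convertase Pcsk2, which cuts further to melanocyte-stimulating hormone. The convertases act inside secretory granules, whose cargo is folded by chaperones of the endoplasmic reticulum before it is packed with granins.

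The 4 libraries held an estimated 44.2 to 54.7 M reads, and between 16174 and 16553 genes were above 0 in each. A gene was tested when it reached 0.1 FPKM in at least 2 libraries, which left 13393 genes. Where 1 group was below 0.1 FPKM, a gene was tested only through the other group, so its direction was largely set by the filter. Values were divided by TMM factors and tested with limma on log2(FPKM + 0.1), so the differences of genes near 0 are understated. A call is an adjusted p under 0.05 over all 13393 genes. Of these, 4911 (36.7%) were called, 2475 (18.5%) higher and 2436 (18.2%) lower in Pax7 cells. In 9247 genes (69%) both deposited values of 1 group lay above both of the other. Single-library values, list sums and overlaps of groups are given as deposited. Fold ratios and log2 differences are given after division by TMM factors, unless another scaling is named. A difference of at least 2-fold was called in 292 genes (2.18%), 199 higher (1.49%) and 93 lower (0.694%). Scaled by library totals instead, 67.7% of calls were higher, 2600 against 1241, where TMM factors gave 50.4%. Most of the 4911 calls were lost in at least 1 fit that left out a library. A lost call in a list below is therefore common. Small differences rested on having all 4 libraries: 1505 genes were called without Pax7 1, 1534 without Pax7 2, 2188 without Neo 2 and 2418 without Neo 1. Of the 292 2-fold calls, 240 were kept whichever library was left out.

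Pax7 itself was close to 0 in the control cells. Pax7 (NM_011039, mm10 chr4:139738081-139832968, minus strand) read 0 and 0.01 FPKM in Neo 1 and Neo 2 and 2.39 and 2.38 FPKM in Pax7 1 and Pax7 2. The level of Pax7 thus matched the label of each library and was nearly equal in both Pax7 libraries. Because a gene-body FPKM is divided by the whole gene span, a transcript without introns reads low on this scale. Pomc, the hormone precursor gene (NM_001278584, chr12:3954945-3960643, plus strand), was at a similar level in both cell populations. Neo 1 and Neo 2 read 2471 and 2396 FPKM, Pax7 1 and Pax7 2 read 2390 and 2447 FPKM, and the groups overlapped in these deposited values. After division by TMM factors the means were 2490 FPKM in Neo (SD 6.4) and 2360 FPKM in Pax7 cells (SD 104). On that scale the difference of Pomc was -0.08 in log2 (SE 0.0544), without a call (limma, adjusted p = 0.304).

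Of 5 melanotrope markers 3 were measured well enough to test, and all 3 rose. Pcsk2 and Oacyl reached 0.1 FPKM in Pax7 cells alone, so the filter left them little room to be called lower. Megf11 was above that level in both groups. Pcsk2 (NM_008792, chr2:143546133-143816282, plus strand) read 0.07 FPKM in each Neo library against 1.3 and 1.32 FPKM in Pax7 cells. Its log2 difference was 3.00 (SE 0.0544; limma, adjusted p = 0.00074). Pcsk2os1 and Pcsk2os2, models on the opposite strand, overlap Pcsk2 and rose with it, by 2.88 and 3.11 on the log2 scale. Counting used no strand, so the reads of the 3 models cannot be told apart where they overlap. Oacyl, of the acyltransferase family (NM_177028), read 0 and 0.01 FPKM in Neo cells against 0.87 and 0.8 FPKM in Pax7 cells. Megf11, a membrane protein with EGF-like repeats, read 0.51 and 0.52 FPKM against 1.9 and 1.82 FPKM, a log2 difference of 1.61 (SE 0.0429). Esm1 stayed between 0.01 and 0.07 FPKM and was not tested, and the 4 libraries list 0 for Drd2, through which dopamine acts on melanotropes. Values are given to 0.01 FPKM, so a gene listed at 0 may still have had some reads.

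Of the corticotrope markers, 8 of 9 were tested, and 1 rose and 4 fell (62.5% called, against 36.7% of all genes). Crhr1 reached 0.1 FPKM in Neo cells alone, so the filter left it little room to be called higher. Avpr1b was not tested, at 0 FPKM in both Neo libraries and in Pax7 1 and 0.01 FPKM in Pax7 2. Pcsk1, the convertase of both cell types, read 20.07 and 19.2 FPKM in Neo cells and 34.95 and 34.16 FPKM in Pax7 cells, 1.67-fold higher. Nr3c1, the glucocorticoid receptor, read 2.45 and 2.3 FPKM against 1.69 and 1.67 FPKM, a log2 difference of -0.54 (SE 0.0365; limma, adjusted p = 0.00389). These 2 calls were kept whichever library was left out. Crhr1, the receptor for corticotropin-releasing hormone, fell from 0.11 and 0.12 FPKM to 0.05 FPKM in each Pax7 library, on 100 to 297 reads, and its call was lost whichever library was left out. The homeobox factor Pitx1 (log2 -0.23) and the helix-loop-helix factor Neurod1 (log2 -0.20) were each called in 1 of the 4 fits that left out a library. Tbx19, the T-box factor that activates Pomc, read 15.52 and 13.9 FPKM in Neo and 17.18 and 16.55 FPKM in Pax7 cells, and Lifr had a log2 difference of -0.14. Neither was called (limma, adjusted p = 0.103 and 0.0849).

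Of genes measured at a mean of at least 0.5 FPKM, 117 had a 2-fold call, groups that did not overlap and a gene name, 85 higher and 32 lower. The 20 largest rises included several genes that were almost silent in Neo cells. Klk14, a kallikrein-type serine protease (NM_174866, chr7:43690418-43695535, plus strand), read 0.03 and 0 FPKM in Neo cells and 3.1 and 3.32 FPKM in Pax7 cells, a log2 difference of 4.82 (SE 0.15; limma, adjusted p = 0.00137). Zfp92, a zinc finger gene (NM_009566, chrX:73411103-73426987, plus strand), read 0.04 and 0.05 FPKM against 2.37 and 2.54 FPKM. Gfra4, a co-receptor of the GDNF ligand family that signals through Ret (NM_001271002, chr2:131039632-131042682, minus strand), read 0.01 FPKM in each Neo library against 1.86 and 1.76 FPKM. Wfdc16, of the four-disulfide-core family (0.01 and 0.01 against 1.44 and 1.3 FPKM), and Pglyrp2, an amidase that cuts bacterial peptidoglycan (0.01 and 0.01 against 1.11 and 1.02 FPKM), had the same pattern. In each of these 5 genes every Pax7 library was above 1 FPKM and every Neo library below 0.1 FPKM.

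The other large rises included genes that were already measured in Neo cells. Iapp, which encodes amylin (NM_010491, chr6:142298425-142303819, plus strand), read 0.38 and 0.42 FPKM in Neo cells and 4.96 and 4.86 FPKM in Pax7 cells, 11.7-fold higher (log2 3.26, SE 0.0646; limma, adjusted p = 0.00074). It overlaps Slco1a5. Ahsg, the serum glycoprotein fetuin-A, was the most abundant of the 20, at 26.91 and 24.86 FPKM against 129.97 and 131.37 FPKM, 4.81-fold higher. Lamb3, a laminin beta chain of epithelial basement membranes (NM_008484, chr1:193301994-193343878, plus strand), read 0.06 and 0.08 FPKM against 1.31 and 1.3 FPKM. Lamb3 was thus below 0.1 FPKM in both Neo libraries, as were the 5 genes above. Elastin (Eln) was 6.27-fold higher and the metalloprotease inhibitor Timp2 4.75-fold higher. Among membrane proteins, the neuropeptide Y receptor Npy1r read 0.36 and 0.34 FPKM against 1.79 and 1.78 FPKM. The ectonucleotidase Entpd3 was 5.23-fold and the sodium channel Scn3a 4.63-fold higher. Apobec2, of the cytidine deaminase family, was 6.38-fold higher and the calcium-binding Necab2 4.75-fold higher. Mest, the paternally expressed imprinted gene (NM_001252292, chr6:30738053-30748466, plus strand), read 4.93 and 4.41 FPKM in Neo cells against 28.15 and 27.01 FPKM in Pax7 cells, 5.62-fold higher, and overlaps Copg2 and Mir335. Each of the 20 calls was kept whichever library was left out. Mest, Ahsg, Timp2, Iapp, Gfra4 and the Pcsk2 models overlap other annotated genes, so their reads may in part belong to those.

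The largest fall was smaller than the largest rise, and all of the 20 genes that fell most were still read in Pax7 cells. Cxcr4, the receptor of the chemokine Cxcl12 (NM_009911, chr1:128588199-128592299, minus strand), read 4.03 and 3.35 FPKM in Neo cells and 0.6 and 0.7 FPKM in Pax7 cells, 5.95-fold higher in Neo (log2 -2.40, SE 0.117; limma, adjusted p = 0.00239). Hpd, an enzyme of tyrosine breakdown (NM_008277, chr5:123171807-123182686, minus strand), read 1.15 and 1.13 FPKM against 0.21 and 0.19 FPKM. Lhx1, a LIM homeobox factor, read 1.18 and 1.12 FPKM against 0.34 and 0.25 FPKM, 4.11-fold higher in Neo. Igfbp4, which binds insulin-like growth factors (NM_010517, chr11:99041260-99052643, plus strand), read 8.93 and 8.58 FPKM against 3.17 and 3.08 FPKM (log2 -1.53, SE 0.0278; limma, adjusted p = 0.00074). Sstr5, a somatostatin receptor through which hormone release from corticotrope cells is inhibited, read 6.57 and 6.61 FPKM against 2.7 and 2.81 FPKM, 2.51-fold higher in Neo.

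The remaining falls were between 2.35-fold and 3.64-fold. Cyb5r1, a cytochrome b5 reductase, was the most abundant of the 20, at 23.01 and 22.7 FPKM against 10.86 and 9.64 FPKM. Dio2, the deiodinase that activates thyroid hormone, was 2.47-fold higher in Neo. The water channel Aqp1 was 2.36-fold, the actin-binding Cotl1 2.35-fold and the large scaffold protein Ahnak 2.8-fold higher in Neo. S100a14 was 3.32-fold, the kallikrein Klk1b9 3.64-fold, Hspa12a 3.34-fold, Otop3 3.14-fold, the pump regulator Fxyd3 2.79-fold, Rd3 3.01-fold, the ligand Dhh 2.8-fold and AW551984 2.67-fold higher in Neo. Ptgds, a prostaglandin synthase, rested on 24 to 150 reads. It read 0.75 and 0.85 FPKM against 0.17 and 0.32 FPKM, and its call (limma, adjusted p = 0.019) was kept in 2 of the 4 fits that left out a library. The other 19 calls were kept in all 4.

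**Figure D1:**
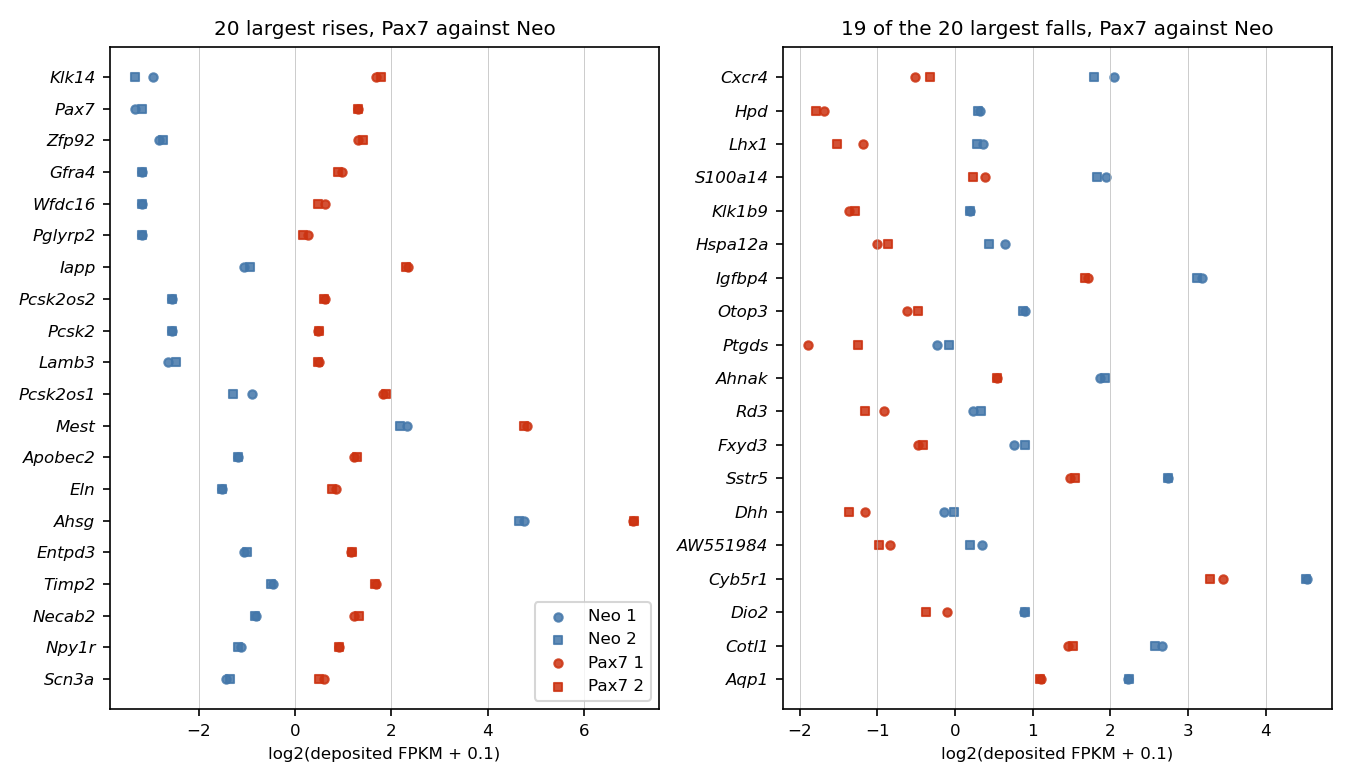
The 20 largest rises (left) and 19 of the 20 largest falls (right) in each library, as log2(deposited FPKM + 0.1), with Neo in blue and Pax7 in red and replicates 1 and 2 as circles and squares. Genes were chosen to have no overlap between groups, and Klk14, Pax7, Zfp92, Gfra4, Wfdc16 and Pglyrp2 are the genes with Neo values nearest 0.

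Genes of the regulated secretory pathway were more often higher than lower. Of 15 tested convertases and peptide-processing enzymes, 7 rose and 1 fell (53.3% called, against 36.7% of all genes). Their median log2 difference was 0.22 against 0.0068 over all genes tested. Besides both convertases, Scg5, the 7B2 chaperone of Pcsk2, rose from 3.51 and 3.4 FPKM to 4.94 and 4.97 FPKM (log2 0.44, SE 0.0357; limma, adjusted p = 0.00505). The count was 5 or 6 with 1 library left out. Of 14 tested granins and granule membrane proteins, 7 rose and none fell (50% called), with a median of 0.21. Chgb, chromogranin B, rose 1.87-fold from 94.6 and 92.25 FPKM to 183.46 and 183.69 FPKM. Chga, chromogranin A, read 243.67 and 231.42 FPKM against 319.77 and 319.56 FPKM, 1.28-fold higher, and lost its call in 1 of the 4 fits that left out a library. The synaptic vesicle protein Sv2a had a log2 difference of 0.31. Sv2c read 0.07 FPKM in each Neo library against 0.22 and 0.19 FPKM in Pax7 cells. It reached the filter of 0.1 FPKM in Pax7 cells alone, which left it little room to be called lower. The count of 7 fell to 3 without Neo 2 or without Pax7 1 and to 2 without Pax7 2, and 2 of the 7 calls, Chgb and the vesicle protein Sv2c, were kept whichever library was left out.

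The docking and release machinery moved in both directions. Of 25 tested members, 10 rose and 4 fell (56% called, against 36.7% of all genes), with a median of 0.19. The small GTPase Rab26 rose from 1.24 and 1.22 FPKM to 3.65 and 3.99 FPKM, 2.96-fold. Rab27a, the GTPase that tethers granules at the cell cortex, rose 2.24-fold from 2.66 and 2.55 FPKM to 6.05 and 6.22 FPKM. Rims3, an active-zone protein, fell from 0.77 and 0.76 FPKM to 0.28 and 0.32 FPKM. Syt5, a calcium sensor (log2 -0.69, SE 0.041), and Sytl4, the granuphilin that binds Rab27a (log2 -0.64, SE 0.0358), also fell, and these 5 calls were kept whichever library was left out. Of 13 tested peptide hormones and neuropeptides, 30.8% were called, below the 36.7% of all genes. Iapp and Calca rose and Cort was 1 of 2 that fell. Cort rested on 17 to 31 reads, at 0.32 and 0.31 FPKM in Neo and 0.23 and 0.2 FPKM in Pax7 cells. Calca, the calcitonin gene, read 2.38 and 2.94 FPKM against 4.44 and 4.1 FPKM. Of the 50 hormone genes on the list, 21 were at 0 in each library.

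Most chaperones of the endoplasmic reticulum were higher in Pax7 cells, with 68.2% of the list called against 36.7% of all genes. Of 22 tested, 14 rose and 1 fell, with a median of 0.31, and the count of 14 was between 8 and 13 with 1 library left out, lowest without Pax7 2. Hspa5, the BiP chaperone, read 219.92 and 229.55 FPKM in Neo cells and 376.95 and 380.8 FPKM in Pax7 cells, 1.6-fold higher (log2 0.68, SE 0.0556; limma, adjusted p = 0.00505). Hsp90b1, the chaperone GRP94, read 62.22 and 59.92 FPKM against 97.47 and 96.36 FPKM, 1.51-fold higher. Pdia6, a disulfide isomerase, read 19.53 and 19.12 FPKM against 29.88 and 30.65 FPKM, 1.49-fold higher, and overlaps Atp6v1c2. Dnajc3 was the member called lower (log2 -0.17), and that call was lost whichever library was left out. The summed FPKM of the list was 643 and 641 in Neo against 944 and 949 in Pax7 libraries.

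These chaperone genes are known for a shared promoter element, the endoplasmic reticulum stress element, which is CCAAT, any 9 bases and CCACG. It was searched on both strands of RefSeq promoter windows (GRCm38.p6, 250 bases before to 50 after the start), in which 9588 of the 13393 tested genes had an entry. It occurred in 37 of 27025 genes with a window (0.137%). Of the 12 chaperone genes that rose and had a window it occurred in 6, Calr, Canx, Hsp90b1, Hspa5, Pdia6 and Syvn1. It also occurred in Dnajc3, which was lower, and in Creld2, which was not called, so matches were not limited to members that rose. The 250 bases before the start are shown for the 3 members with the largest rises, with matches in capitals. They are Hspa5 (chr2:34771840-34772089, plus strand), Hsp90b1 (chr10:86705445-86705694, minus strand) and Pdia6 (chr12:17266339-17266588, plus strand), each written along the gene's own strand from 5′ to 3′.
Hspa5: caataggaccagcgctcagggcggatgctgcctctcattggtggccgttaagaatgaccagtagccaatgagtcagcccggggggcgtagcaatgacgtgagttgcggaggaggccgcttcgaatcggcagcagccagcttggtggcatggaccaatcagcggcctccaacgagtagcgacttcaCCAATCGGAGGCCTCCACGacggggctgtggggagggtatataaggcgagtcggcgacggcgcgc
Hsp90b1: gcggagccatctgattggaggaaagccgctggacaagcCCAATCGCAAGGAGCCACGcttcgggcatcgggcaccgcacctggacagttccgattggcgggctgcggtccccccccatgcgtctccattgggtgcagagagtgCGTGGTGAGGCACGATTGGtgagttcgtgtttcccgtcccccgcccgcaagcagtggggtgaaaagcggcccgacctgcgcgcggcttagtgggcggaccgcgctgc
Pdia6: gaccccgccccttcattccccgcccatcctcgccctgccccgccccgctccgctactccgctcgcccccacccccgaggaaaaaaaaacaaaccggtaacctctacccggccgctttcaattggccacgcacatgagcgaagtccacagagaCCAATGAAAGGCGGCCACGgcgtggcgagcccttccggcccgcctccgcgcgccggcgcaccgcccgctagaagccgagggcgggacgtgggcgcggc
Hspa5 and Pdia6 hold 1 match each, and Hsp90b1 holds 2, of which 1 is on the other strand. A match is a run of letters and not a measured binding site.

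Most of the sterol genes tested were called higher in Pax7 cells. Of 23 tested genes of sterol synthesis and uptake, 15 rose and none fell, with a median of 0.35. That is 65.2% called, against 36.7% of all genes. The sterol carrier Stard4 read 3.89 and 3.78 FPKM in Neo and 6.83 and 7.41 FPKM in Pax7 cells, 1.77-fold higher (log2 0.80, SE 0.066; limma, adjusted p = 0.00508). Dhcr7, a reductase late in cholesterol synthesis, rose 1.71-fold. The count of 15 was between 8 and 11 with 1 library left out, lowest without Pax7 2, and 8 of the 15 calls were kept in all 4 of these fits. The list was uneven, since the synthase Hmgcs1 (log2 -0.14) and the kinase Mvk (log2 -0.13), both early in the pathway and named after their values were seen, had the lowest differences. Of 20 tested genes of fatty acid synthesis, 10 rose and none fell (50% called), with a median of 0.18. Thrsp, an activator of lipogenesis, rose 1.56-fold, Elovl5, an elongase, 1.57-fold, and Scd2, a desaturase, read 90.98 and 80.11 FPKM against 116.04 and 121.13 FPKM. The count of 10 fell to 5 without either Neo library, to 3 without Pax7 1 and to 2 without Pax7 2.

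Genes of mitosis and the spindle went the other way. Of 48 tested, 43 were lower in Pax7 cells and none was higher, with a median of -0.31 and a range from -0.60 to 0.06. That is 89.6% called, against 36.7% of all genes. Top2a, the topoisomerase that separates sister chromatids, read 51.68 and 52.13 FPKM in Neo cells and 37.41 and 34.39 FPKM in Pax7 cells, 1.52-fold higher in Neo (log2 -0.60, SE 0.0408; limma, adjusted p = 0.00391). Nusap1, a spindle-associated protein, read 4.77 FPKM in each Neo library against 3.57 and 3.39 FPKM and overlaps Oip5. Ube2c, the ubiquitin-conjugating enzyme of the anaphase-promoting complex, read 25.56 and 22.5 FPKM against 17.53 and 17.87 FPKM. The summed FPKM of the list was 409 and 401 in Neo and 344 and 328 in Pax7 libraries. Scaled by library totals, 27 of the 48 were lower and none higher, with a median of -0.24. The count was 29 without Neo 1, 28 without Neo 2, and 19 without either Pax7 library, and 17 of the 43 calls were kept in all 4 of these fits.

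Many mitotic genes carry the cell cycle genes homology region, TTTGAA, near the start. In the same windows, searched on both strands, these 6 letters occurred in 28 of the 36 mitosis genes that were lower and had a window (77.8%), in 3 of the 5 that were not called, and in 5466 of 27025 genes (20.2%). Members that were not called therefore held it too. The 250 bases before the start are shown for Top2a (chr11:99024190-99024439, minus strand), the largest fall, and for Cdc20 (chr4:118437344-118437593, minus strand) and Cdk1 (chr10:69352913-69353162, minus strand), chosen after their values were seen because the match lies before the start.
Top2a: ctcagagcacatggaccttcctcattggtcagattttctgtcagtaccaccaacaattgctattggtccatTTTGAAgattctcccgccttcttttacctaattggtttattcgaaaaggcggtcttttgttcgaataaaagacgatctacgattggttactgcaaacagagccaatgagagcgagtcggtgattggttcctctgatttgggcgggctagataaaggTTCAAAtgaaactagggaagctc
Cdc20: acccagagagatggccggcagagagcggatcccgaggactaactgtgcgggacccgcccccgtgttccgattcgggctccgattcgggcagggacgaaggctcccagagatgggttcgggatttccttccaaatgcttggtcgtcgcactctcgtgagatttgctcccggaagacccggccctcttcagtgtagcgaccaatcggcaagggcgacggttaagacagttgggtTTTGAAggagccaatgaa
Cdk1: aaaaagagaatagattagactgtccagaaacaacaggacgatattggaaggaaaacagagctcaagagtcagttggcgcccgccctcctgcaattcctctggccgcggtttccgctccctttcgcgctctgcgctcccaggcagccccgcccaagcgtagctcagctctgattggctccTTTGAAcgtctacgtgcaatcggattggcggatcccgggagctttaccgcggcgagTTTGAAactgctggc
Top2a and Cdk1 hold 2 matches each and Cdc20 holds 1. Cdc20, an activator of the anaphase-promoting complex, read 19.59 and 19.23 FPKM in Neo and 16.08 and 14.9 FPKM in Pax7 cells, and Cdk1, the mitotic kinase, read 16.44 and 17.07 FPKM against 14.15 and 13.79 FPKM. The call of Cdc20 was kept in all 4 fits that left out a library and that of Cdk1 in 2. Other motifs were also searched in the promoter windows. A homeodomain core was in 5 of the 126 genes with a window that rose at least 2-fold (3.97%), against 6.12% of 27025 genes. It was in 4 of the 48 that fell at least 2-fold (8.33%). A paired homeodomain site was in 0 of 126 and 0 of 48, against 0.555%. The sterol regulatory element was in 0 of 11 sterol genes that rose and 1 of 5 not called, against 1.44%.

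DNA replication genes moved in both directions. Of 43 tested, 4 rose and 15 fell (44.2% called, against 36.7% of all genes), with a median of -0.07. With library totals 5 were higher and 7 lower, and the median was 0.0047. Mcm6, a subunit of the replicative helicase, read 18.67 and 18.23 FPKM against 15.73 and 15.28 FPKM, the 1 call of the list that was kept whichever library was left out. Cyclin E genes were called higher (Ccne1, log2 0.18, and Ccne2, log2 0.20), and both calls were lost whichever library was left out. Of 8 tested CDK inhibitors and D-type cyclins, 1 rose and 4 fell (62.5% called). Cdkn1b, the inhibitor p27, rose 1.3-fold from 16.01 and 14.77 FPKM to 21.58 and 20.56 FPKM. Cyclin D1 (Ccnd1) read 0.52 and 0.56 FPKM against 0.16 and 0.19 FPKM, 3.24-fold higher in Neo, and Cdkn1c, the inhibitor p57, was 1.31-fold higher in Neo.

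**Figure D2:**
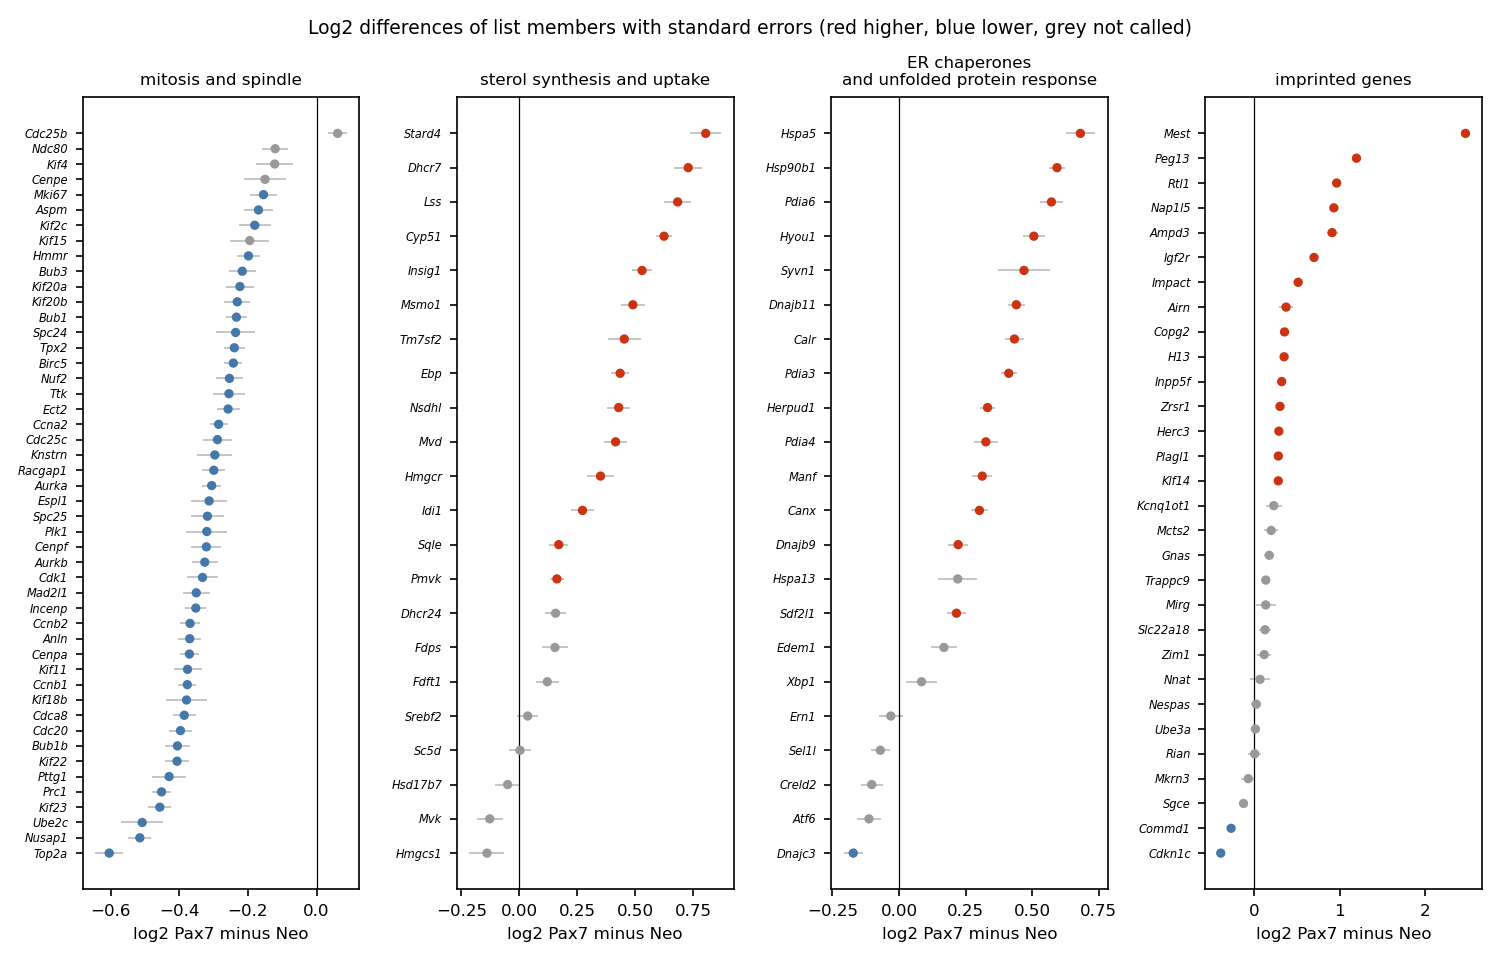
Log2 difference, Pax7 minus Neo, of the tested members of 4 gene lists, 1 sterol gene left out, each with its standard error (n = 2 libraries a side), in red where called higher, blue where called lower and grey where not called. In the mitosis list 43 of 48 points are blue and none is red, and in the sterol list most are red and none is blue.

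Ion channel genes changed in both directions. Of 17 tested sodium and calcium channel genes 5 rose and 6 fell (64.7% called, against 36.7% of all genes), led by Scn3a, at 0.27 and 0.29 FPKM in Neo and 1.41 and 1.32 FPKM in Pax7 cells. Cacna1h, a T-type calcium channel, fell from 0.33 and 0.27 FPKM to 0.12 and 0.1 FPKM, 2.87-fold higher in Neo, and overlaps Tpsg1. Of the 11 calls of this list, those of Scn3a and Cacna1h were the 2 kept whichever library was left out. Of 21 tested potassium channel genes 7 rose and 2 fell (42.9% called). Kcnc1, a fast-gating channel of the Kv3 type, rose 2.95-fold from 0.28 and 0.23 to 0.8 and 0.78 FPKM, and Kcnk6, a two-pore-domain channel, rose 1.65-fold. Of these 9 potassium channel calls 3 were kept whichever library was left out, among them those of Kcnc1 and Kcnk6.

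In the cyclic AMP pathway, through which corticotropin-releasing hormone acts, 12 of 30 tested genes rose and 4 fell. That is 53.3% called, against 36.7% of all genes, and the median was 0.17. Pde2a, a phosphodiesterase that cyclic GMP stimulates, rose 2.99-fold, from 0.29 FPKM in each Neo library to 0.89 and 0.93 FPKM. Prkar1a, a regulatory subunit that holds protein kinase A inactive, was far more abundant and rose 1.64-fold, from 38.72 and 36.27 FPKM to 65 and 64.1 FPKM. Crem, a cyclic AMP-responsive factor, rose 1.72-fold, and the transcription factor Creb1 was 1.29-fold and the phosphodiesterase Pde7a 1.28-fold higher in Neo. The count of 12 fell to 5 without either Neo library and to 4 without either Pax7 library. With a filter of 1 FPKM, 4 members were called higher, and most of the 12 lie below that level.

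Basement membrane genes changed chain by chain. Of 22 tested laminins, collagens and integrins 9 rose and 4 fell (59.1% called), with a median of 0.16. Beside Lamb3, the chain Lama4 rose from 0.09 FPKM in each Neo library to 0.42 and 0.36 FPKM, and Col18a1, the precursor of endostatin, rose 1.86-fold. Lamb3 and Lama4 reached the filter of 0.1 FPKM in Pax7 cells alone, which left them little room to be called lower. Among the 4 that fell, Itga7 reached it in Neo cells alone. Lama5 fell from 1.33 and 1.29 FPKM to 0.69 and 0.65 FPKM. Of 35 tested axon guidance genes 7 rose and 5 fell, a share of 34.3% called that is near the 36.7% of all genes. The semaphorins Sema4c (4.22 and 4.12 against 7.95 and 8.24 FPKM) and Sema6b (1.81-fold) and the receptor Ephb2 (1.7-fold) rose. The receptor Plxnd1 was 2.48-fold and the ligand Efna3 2.31-fold higher in Neo. Among epithelial genes 7 of 22 rose and 6 fell, and 3 of these 13 calls were kept whichever library was left out. The share of epithelial genes called was 59.1%, against 36.7% of all genes. The tight-junction claudin Cldn3 rose 1.34-fold from 52.93 and 51.36 to 73.65 and 73.54 FPKM, and Cldn4, on 8 to 64 reads, read 0.07 and 0.13 FPKM against 0.64 and 0.65 FPKM.

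Imprinted genes, which are transcribed from 1 parental allele, were higher in 15 and lower in 2 of 30 tested. That is 56.7% called, against 36.7% of all genes, with a median of 0.26. After Mest, the largest rises were those of Peg13, a non-coding RNA that read 5.9 and 5.48 FPKM against 14.56 and 13.14 FPKM, and of Rtl1. Rtl1, a gene derived from a retrotransposon, read 21.11 and 20.27 FPKM against 43.29 and 41.84 FPKM and overlaps an antisense gene and several miRNA genes, from which its reads cannot be told apart. Cdkn1c and Commd1 were the 2 called lower. Some members of the list overlap each other, such as Mest with Copg2, Igf2r with Airn and Commd1 with Zrsr1, and may share reads. The count of 15 was between 8 and 11 with 1 library left out, lowest without Pax7 2.

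In the signalling pathways a few members changed strongly while the list medians stayed near that of all genes, except in the IGF list (-0.22). Of 16 tested Notch pathway genes 4 rose and 3 fell (43.8% called), and Hey1, a transcriptional repressor downstream of Notch, read 2.96 and 2.7 FPKM against 7.32 and 7.7 FPKM, 2.53-fold higher. The ligand Dll1 read 0.18 FPKM in each Neo library against 0.37 and 0.4 FPKM. Of 23 tested BMP and TGF-beta genes 4 rose and 2 fell (26.1% called, below the 36.7% of all genes), with Tgfb3 2.8-fold higher and the target Id3 1.46-fold higher, from 62.94 and 61.99 to 96 and 96.22 FPKM. Of 9 tested IGF and insulin genes 2 rose and 5 fell (77.8% called). Igf2r, the receptor that clears IGF2, rose 1.65-fold and overlaps Airn, and Igfbp5 read 12.17 and 10.13 FPKM against 5.66 and 5.53 FPKM. Of 24 tested Wnt genes 5 rose and 6 fell (45.8% called), with Rspo4, an enhancer of Wnt signalling, 3.67-fold higher and the receptor Fzd7 1.65-fold higher in Neo. Of 20 immediate early genes tested 5 rose and 3 fell (40% called), and Egr2, at 9.53 and 9.12 FPKM against 17.92 and 16.81 FPKM, had the 1 call kept whichever library was left out. Of 24 amino acid stress genes 10 rose and 7 fell, which became 10 and 3 with library totals, and 3 of the 17 calls were kept whichever library was left out. These were Chac1, which rose 1.52-fold, and Ddit3 and Trib3, which are induced in the same stress response and were 1.58-fold and 1.48-fold higher in Neo. The share of amino acid stress genes called was 70.8%, against 36.7% of all genes.

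Several of the remaining lists had no call that was kept whichever library was left out. Over all genes, most calls were also lost in at least 1 of these fits. Of 69 tested chromatin regulators 14 rose and 7 fell (30.4% called, against 36.7% of all genes), and none of these 21 calls was kept in all 4 fits that left out a library. Of 24 interferon and antigen presentation genes 4 rose and 8 fell (50% called), with Dhx58, an RNA sensor of the RIG-I type, 1.69-fold and the immunoproteasome subunit Psmb9 1.72-fold higher in Neo. These were among 5 of the 12 interferon calls that were kept in all 4 fits, and all 5 were lower in Pax7 cells. Of 9 tested pituitary progenitor and patterning factors 4 rose and 3 fell, and none of those calls was kept in all 4 fits. Of 13 neuronal adhesion genes 4 rose and 1 fell (38.5% called), again with none kept. Of 7 tested LIM and PAX factors 1 rose and 3 fell, and the call of Lhx1 was the 1 kept. The share called was 77.8% of the progenitor and patterning factors and 57.1% of the LIM and PAX factors. Pax1, Pax2, Pax3, Pax8 and Pax9 were listed at 0 in each library. The list of structural non-coding RNAs holds both short and long transcripts. It summed to 18900 and 20900 FPKM in Neo and 17000 and 19300 FPKM in Pax7 libraries. Of 9 tested, 2 were called lower, Snhg1 and Gas5 (22.2% called).

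**Figure D3:**
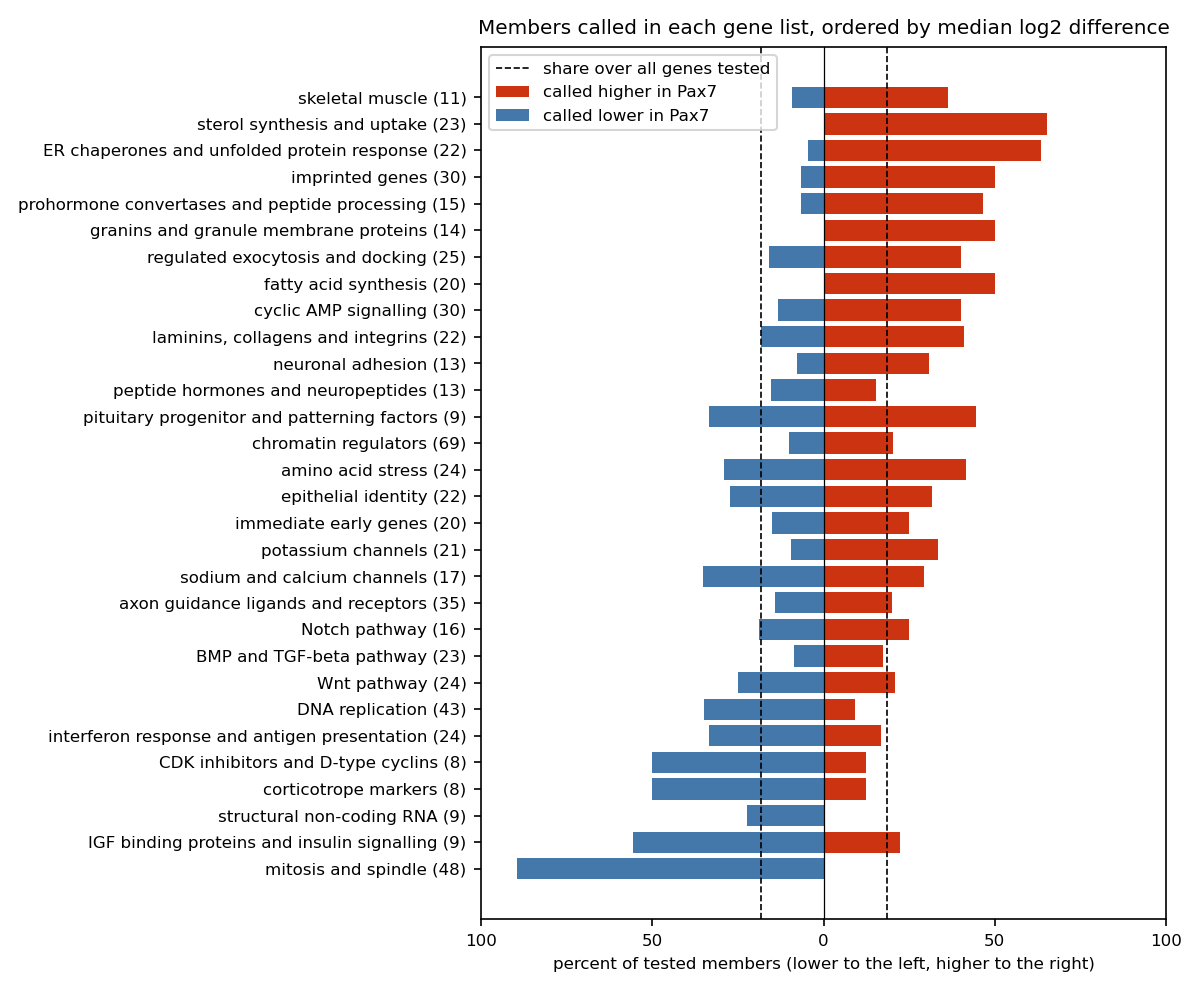
Share of tested members called higher (red, to the right) and lower (blue, to the left) in each gene list with at least 8 tested members, ordered by median log2 difference, with the number tested in brackets. Dashed lines mark the shares over all genes tested, 18.5% higher and 18.2% lower, and the mitosis bar (43 of 48 lower) lies farthest from its line.

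Markers of other cell types were mostly at or near 0. Of 25 leukocyte genes, 8 were at 0 in each library, among them Ptprc, the pan-leukocyte marker CD45. The summed level of the list was 7.86 and 7.39 FPKM in Neo and 3.16 and 3.37 FPKM in Pax7 libraries, and Cxcr4 and Coro1a, an actin regulator that read 2.1 and 2.05 against 1.4 and 1.44 FPKM, made up most of it. Of the 6 tested, 1 rose and 4 fell (83.3% called, against 36.7% of all genes). Cd68, a macrophage marker measured on 19 to 46 reads, rose from 0.17 FPKM in each Neo library to 0.33 and 0.43 FPKM, a call (limma, adjusted p = 0.0193) kept in 2 of the 4 fits that left out a library. Among those that fell, Cd2, an adhesion receptor of lymphocytes, read 0.49 and 0.63 FPKM against 0.08 and 0.1 FPKM, and the lysozyme Lyz2 0.72 and 0.74 FPKM against 0.25 and 0.27 FPKM. Of 12 fibroblast markers 7 were at 0 in each library, and the summed level, 8.13 to 8.5 FPKM, was nearly all Twist1. Of 12 endothelial markers 3 were at 0, and the sum of 4.48 to 6.75 FPKM was mostly Egfl7, which was 1.64-fold higher in Neo. The other endothelial marker tested, Vwf, the von Willebrand factor, rose from 0.12 and 0.11 FPKM to 0.26 and 0.24 FPKM. Of the 14 genes of other hormone lineages 6 were at 0 in each library, including Prl and Pou1f1, and 2 were tested. Of 11 muscle genes tested 4 rose and 1 fell (45.5% called, against 36.7% of all genes). Mybpc1, a myosin-binding protein, read 0.04 FPKM in each Neo library against 0.95 and 0.93 FPKM, and Des, desmin, read 0.21 and 0.17 against 0.42 and 0.54 FPKM. Itga7, an integrin of muscle that is also on the laminin and integrin list, fell from 0.24 and 0.2 FPKM to 0.05 FPKM in each Pax7 library. Mybpc1 reached the filter of 0.1 FPKM in Pax7 cells alone and Itga7 in Neo cells alone. The filter thus left each little room for the other direction. Myod1, Myf5 and Myog, the factors that set the muscle fate, were listed at 0 in each library. The part of other cells in these differences was not tested, and in such bulk libraries fewer cells of a type and less RNA per cell cannot be told apart.

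The same factor was switched on in the ER-Pax7 cells, whose 96 h and 0 h libraries sit in a table of their own, in scaled exon reads, and share no control with Neo. That comparison called 5124 of 15188 genes (33.7%), 2482 higher (16.3%) and 2642 lower (17.4%) at 96 h. Of 12992 genes tested in both tables, 2045 were called in the same direction, which is 42.3% of the 4830 calls in Pax7 against Neo and 44.2% of the 4623 calls at 96 h. Another 283 were called in opposite directions. With 1 library left out the same-direction count was 1107 without Neo 1, 1039 without Neo 2, 779 without Pax7 1 and 837 without Pax7 2, and the opposite count was 112, 108, 70 and 60. Of 162 genes with a 2-fold rise in Pax7 cells that were tested in both, 106 were also higher at 96 h, 50 were not called and 6 were lower. Of 70 with a 2-fold fall, 54 were lower at 96 h, 16 were not called and none was higher. The difference between the systems was not tested, and times and units differ.

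Some of the genes described above were called in both systems, and others had no call or the opposite call at 96 h. Oacyl (log2 3.12 and 5.57 at 96 h), Mybpc1 (2.85 and 4.03), Lamb3 (3.00 and 2.67), Gfra4 (4.08 and 2.44) and Pcsk2 (3.00 and 1.46) were higher in both. Cxcr4 (-2.40 and -0.50), Igfbp4 (-1.53 and -1.46), Sstr5 (-1.30 and -1.30) and Fxyd3 (-1.34 and -2.27) were lower in both. Eln, Necab2, Npy1r and Megf11 had no call at 96 h, and Klk14 and Wfdc16 were too low there to test. Iapp was higher in Pax7 cells (log2 3.26) and lower at 96 h (-1.60). Of 23 sterol genes 2 were higher and 13 lower at 96 h, with a median of -0.18, and 7 of them were called higher in Pax7 cells and lower at 96 h. Of 22 chaperones 4 were higher and 6 lower at 96 h, with a median of -0.05. Of the 48 mitosis genes 16 were called lower and none higher at 96 h, with a median of -0.07.

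**Figure D4:**
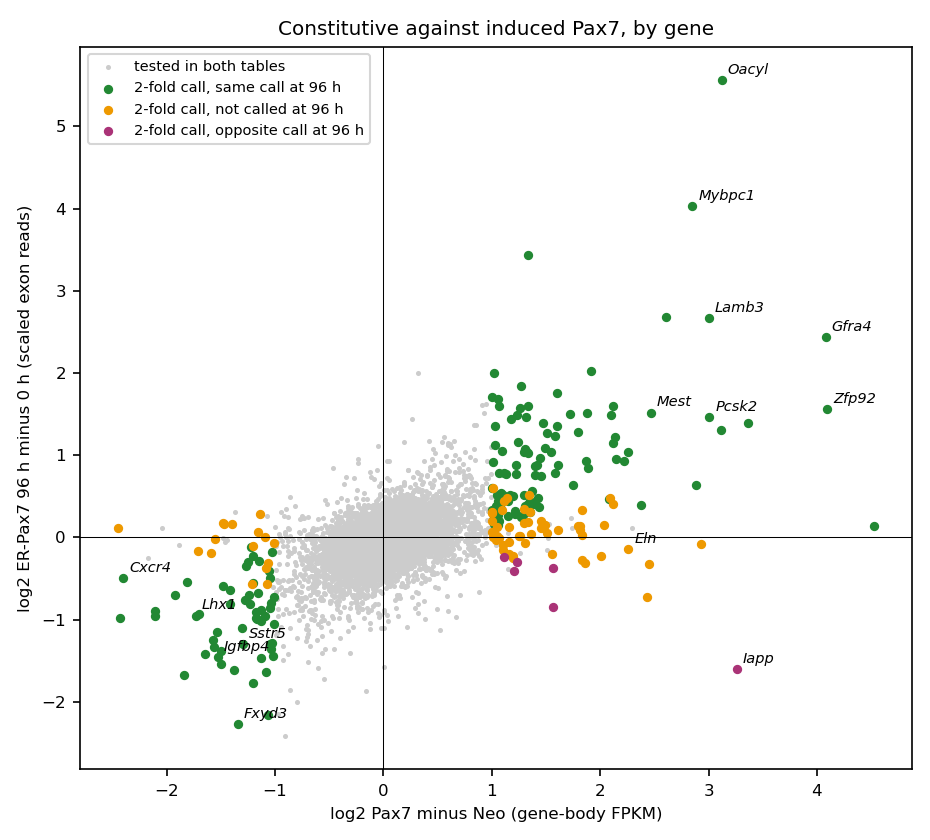
Log2 difference Pax7 minus Neo (x axis, gene-body FPKM) against log2 difference ER-Pax7 96 h minus 0 h (y axis, scaled exon reads) for 12992 genes tested in both tables, with genes of a 2-fold call in Pax7 against Neo coloured by their call at 96 h. Green points (same call, 106 higher and 54 lower) fill the upper right and lower left, orange points had no call at 96 h, and Iapp, in purple for an opposite call, lies apart at the lower right.

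Because Neo and Pax7 cells are separate populations, differences were also laid out along chromosomes. Chromosome 1 had more lower than higher calls, 215 against 89 of 714 genes tested, and its median log2 difference was -0.07, a difference of -0.0763 from that of all genes. Chromosome 10 had the opposite pattern, with 189 higher and 81 lower calls of 659 genes and a median of 0.07, which lay 0.0605 above that of all genes. The median deviation of chromosome 1 genes was 0.0374 and 0.0471 in the Neo libraries and -0.0414 and -0.0423 in the Pax7 libraries. On chromosome 10 it was -0.029 and -0.0364 in Neo and 0.0286 and 0.037 in Pax7 libraries. Both shifts ran along the chromosome: 12 of 13 windows of 10 Mb with at least 20 tested genes on chromosome 1 had a median below 0, and 11 of 12 on chromosome 10 had one above 0. Other chromosomes had smaller shifts of the same kind: chromosome 3 lay -0.0528 from all genes, with 95 higher and 145 lower calls and 9 of 9 windows below 0, and chromosome 17 had 7 of 8 windows below 0. At 96 h the medians of chromosomes 1 and 10 were 0.0066 and -0.012. Calls there were 133 higher and 138 lower on chromosome 1 and 98 higher and 139 lower on chromosome 10. Cxcr4, Rd3, Cyb5r1 and Lamb3 lie on chromosome 1, and the 2-fold calls there numbered 15 higher and 7 lower, against 199 higher and 93 lower over all genes. Median differences also moved with gene length, from -0.01 in genes of up to 5 kb to 0.05 in genes above 100 kb.

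**Figure D5:**
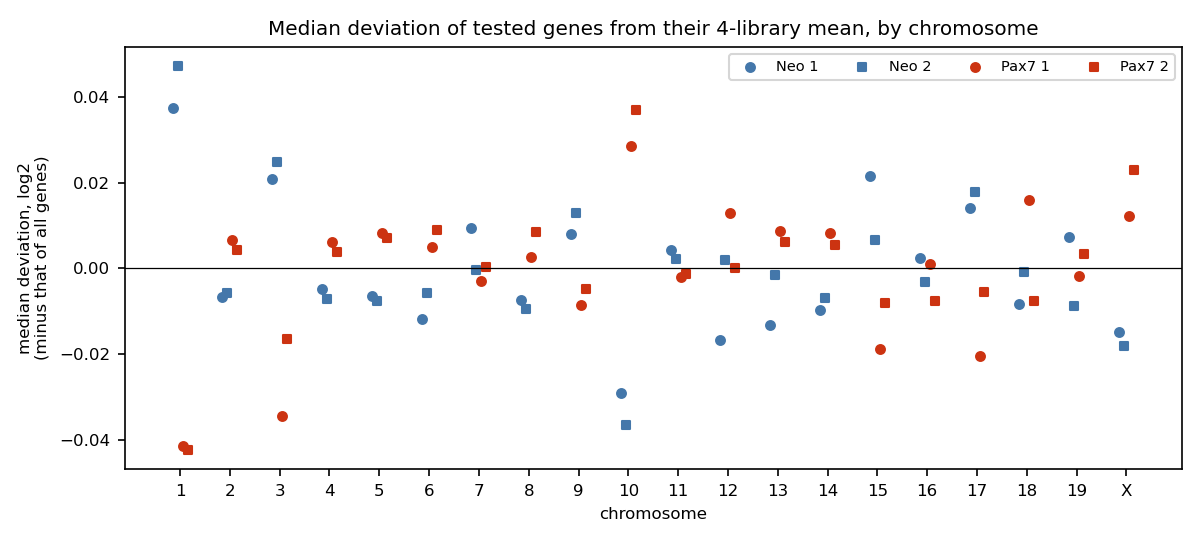
Median deviation of tested genes from their 4-library mean, by chromosome and library, in log2 units after subtracting the median of all genes in that library. On chromosome 1 both Neo libraries lie above and both Pax7 libraries below 0, and on chromosome 10 the order is reversed.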

How the data were processed

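Gene-body FPKM for 2 Neo and 2 Pax7 libraries were deposited by the authors in 1 table, and exon reads of the ER-Pax7 libraries, scaled between libraries, were deposited as a signal per gene in another. The columns of each table have equal sums, so the values were rescaled to 1 total before they were deposited. Genes are RefSeq models on mm10 counted with HOMER without a strand option, per the file headers, and TopHat, HOMER and edgeR are named in the submitters' processing notes, with versions not given in the sources used here. The authors' fold and p columns were not used. The comparison, members and gene lists were chosen with earlier results of these data known.

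Genes with at least 0.1 FPKM in 2 libraries were kept, divided by TMM factors (edgeR 4.0.16) and tested as log2(FPKM + 0.1) with limma 3.58.1 in R 4.3.3, with a variance trend and Benjamini-Hochberg adjustment over all genes tested. An exact permutation test of 2 against 2 libraries cannot go below p = 0.333. The ER-Pax7 table was tested the same way at 96 h against 0 h, on log2(value + 1) for genes with at least 1 in 3 libraries. Whole reads were recovered from its scaled values for 100% of the low values within 0.1 reads, and edgeR's quasi-likelihood test on them, added after seeing the data, called 5129 genes (2477 higher, 2652 lower), 5062 of them shared with limma's 5124. Depth was estimated from the step of low FPKM values. Values are rounded to 0.01 FPKM, which limits genes with few reads. Fold ratios are ratios of means after division by TMM factors and are printed where both means reach 0.1 FPKM. Single-library values, list sums and overlaps of groups were taken before that division, so printed values need not give the printed ratio. Scripts were tested on simulated data.

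Named genes are the 20 largest rises and 20 largest falls among genes with a 2-fold call, a mean of at least 0.5 FPKM and no overlap between groups, and up to 3 called genes in each direction in each list at a mean of at least 0.2 FPKM. The melanotrope and corticotrope lists were named in full. A few genes that met this rule are not reported here. Other genes named were chosen after their values were seen. Alternatives were other scaling, pseudocounts and filters, no variance trend, a replicate block and leaving out each library. Promoter windows came from RefSeq (GRCm38.p6). Figures were drawn with matplotlib 3.10.9.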

Additional observations from a re-analysis of the deposited data

Results flagged for a closer look

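In 21 of the genes named, Pax7 against Neo and ER-Pax7 96 h against 0 h were called in opposite directions with no overlap between groups in either table. The difference between the systems was not tested. The Pax7 against Neo calls of Iapp, Chgb, Pdia6, Egr2, Sfrp5 and Chac1 were kept whichever library was left out. Those of Hes1, Tyms, Pitx1, Neurod1, Gas5, Mfng and Ier5 were kept in 1 of those 4 fits and those of Krt8 and Six6 in none. Each pair of values below is a log2 difference, first Pax7 minus Neo and then 96 h minus 0 h.

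Iapp, Calca, Chgb, Chga and Pdia6 were higher in Pax7 cells and lower at 96 h. Iapp had 3.26 and -1.60. Calca had 0.60 and -0.90, Chgb had 0.90 and -0.26, and Chga had 0.36 and -0.45. The disulfide isomerase Pdia6 had 0.57 and -0.11.

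Other genes with that order were Egr2 (0.82 and -0.14), Sfrp5 (0.68 and -0.27), Chac1 (0.60 and -0.15), Smarcc2 (0.33 and -0.11), Hes1 (0.30 and -0.67), Krt8 (0.27 and -0.18), Tyms (0.25 and -0.13) and Six6 (0.20 and -0.60).

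The reverse order, lower in Pax7 cells and higher at 96 h, was found in the corticotrope factors Pitx1 (-0.23 and 0.25) and Neurod1 (-0.20 and 0.30). It was also found in Gas5 (-0.41 and 0.16), Gdf15 (-0.40 and 0.32), Eprs (-0.28 and 0.0865), Suv39h1 (-0.28 and 0.11), Mfng (-0.25 and 0.15) and Ier5 (-0.23 and 0.17).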

How the results depend on the processing

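Of the genes named by the rule, 182 were called, and none of these changed sign under the alternatives run. The filter of 1 FPKM covered 140 of them. Sign changes of named genes without a call, such as Pomc, were not counted. With library totals the list medians changed sign for DNA replication (-0.07 to 0.0047), Wnt (-0.03 to 0.0356), fibroblast (-0.03 to 0.0294) and endothelial genes (-0.02 to 0.0383), and 1241 genes were called lower, and 27 mitosis genes. Calls of at least 2-fold numbered 453 with a pseudocount of 0.01, 53 with 1, and 131 with a filter of 1 FPKM, which also left 4 cyclic AMP genes called higher. Chromosome 1 minus all genes was -0.0708 with library totals, -0.0419 with a pseudocount of 1 and -0.0431 with no filter. Chromosome 10 minus all genes was 0.0294 with a pseudocount of 1, 0.0546 with no filter and 0.0685 with a filter of 1 FPKM.

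With 1 library left out, the lone library of its group is assumed to vary like the others. Genes called then ranged from 1505 to 2418, higher from 760 to 1284 and lower from 688 to 1134. Calls in both systems ranged from 779 to 1107 in the same direction and from 60 to 112 in opposite directions. Members called ranged from 19 to 29 for mitosis, 8 to 11 for sterols, 2 to 5 for fatty acids, 8 to 13 for chaperones, 2 to 6 for granins, 8 to 11 for imprinted genes and 4 to 5 for cyclic AMP. Chromosome 1 ranged from -0.0855 to -0.0728 and chromosome 10 from 0.0531 to 0.0682.

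Deviations of same-numbered libraries correlated at 0.0375, so the numbers were not taken as pairs. With a replicate block 3412 genes were called, 182 in opposite directions between systems, and 7 cyclic AMP genes. The cause of these changes was not tested. Rounding to 0.01 FPKM and few reads limit genes near 0, such as Klk14, Gfra4 and Wfdc16 in Neo cells.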
